A study of Mus musculus with 10 samples.

Results

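The 10 genes described here encode subunits of the GABA-A receptor: Gabra2, Gabra3, Gabra4, Gabra5, Gabrb1, Gabrb2, Gabrg1, Gabrg3, Gabrd and Gabrq. They were taken from the array's rows that the platform annotation assigns to 1 of these symbols alone, with the brightest probe set standing for each gene, out of 19938 genes with a value. Whole-brain RNA came from 5 Tg mice, which overexpress Glo1 from a bacterial artificial chromosome transgene, and from 5 WT littermates. All 10 were untreated adult males of C57Bl/6J background, and each was measured on its own array, with values in log2 units. Glo1 itself read 11.88 to 12.23 log2 units in Tg brains and 10.27 to 10.75 in WT brains. The labels name neither the promoter and cell types of the transgene nor the founder line. Glo1, glyoxalase 1, removes methylglyoxal, a by-product of glycolysis that can activate the GABA-A receptor, and the comparison asked whether the receptor's own genes differed with it.

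GABA-A receptors are chloride channels of 5 subunits that open when GABA binds, and they carry most fast inhibition in the brain. Receptors with alpha2 or alpha3 and a gamma subunit sit at synapses and give brief currents, whereas receptors with delta, and many with alpha5, sit outside synapses, sense low ambient GABA and give a steady current. The alpha4 subunit is the usual partner of delta in thalamus and dentate gyrus. The beta subunits are needed for assembly and take part in both kinds of receptor. The gamma1, gamma3 and theta subunits are rarer and restricted to a few regions. For description, Gabra2, Gabra3, Gabrb1 and Gabrb2 were grouped as the synaptic set, Gabra4, Gabra5 and Gabrd as the extrasynaptic set, and Gabrg1, Gabrg3 and Gabrq as the rarer set.

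The genes lie in clusters: Gabra2, Gabra4, Gabrb1 and Gabrg1 on chromosome 5, Gabra5 and Gabrg3 on chromosome 7, Gabra3 and Gabrq on the X chromosome, Gabrb2 on chromosome 11 and Gabrd on chromosome 4. RefSeq promoter windows of 300 bases (build GRCm38.p6, 250 before to 50 after a start) were matched for 9 of the 10 genes, all but Gabrd. The 3 windows below are printed because Gabra4 and Gabrb1 start on opposite strands with 387 bases between their starts, so that their transcripts overlap at the beginning, and because Gabrq showed the lowest p of the 10 genes. Sequences run 5′ to 3′ on the gene's own strand, and capitals mark each CG pair.
Gabra4: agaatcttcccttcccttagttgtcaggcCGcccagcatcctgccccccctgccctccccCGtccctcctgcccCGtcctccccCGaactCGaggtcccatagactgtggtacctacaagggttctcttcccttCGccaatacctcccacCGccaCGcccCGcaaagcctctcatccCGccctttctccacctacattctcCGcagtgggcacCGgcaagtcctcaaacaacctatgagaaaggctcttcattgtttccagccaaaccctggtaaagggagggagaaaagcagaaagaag
Gabrb1: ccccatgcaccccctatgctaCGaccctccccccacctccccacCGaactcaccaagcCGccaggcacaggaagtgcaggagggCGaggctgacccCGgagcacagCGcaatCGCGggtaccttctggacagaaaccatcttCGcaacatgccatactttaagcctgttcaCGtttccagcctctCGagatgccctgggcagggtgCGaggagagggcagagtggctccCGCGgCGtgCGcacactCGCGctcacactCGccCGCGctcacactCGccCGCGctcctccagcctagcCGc
Gabrq: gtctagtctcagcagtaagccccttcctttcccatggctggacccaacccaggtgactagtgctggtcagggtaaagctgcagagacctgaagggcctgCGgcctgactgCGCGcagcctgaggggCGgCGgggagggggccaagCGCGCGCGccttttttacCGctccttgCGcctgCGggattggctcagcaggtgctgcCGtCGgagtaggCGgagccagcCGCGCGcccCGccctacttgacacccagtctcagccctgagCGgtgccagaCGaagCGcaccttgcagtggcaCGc
The Gabra4 window is chr5:71658259-71658558 on the minus strand, the Gabrb1 window chr5:71657671-71657970 on the plus strand, and the Gabrq window chrX:72824928-72825227 on the plus strand. They hold 12, 25 and 23 CG pairs in that order, where the median of all 32851 windows in the RefSeq table is 7. Gabrb1 has a second listed start without overlap with Gabra4. Among the other members, the Gabrg1 window holds 3 CG pairs and both Gabra3 windows hold 0. The GC box GGGCGG, on either strand, was found in windows of 5 of the 9 genes (Gabra2, Gabra4, Gabrb2, Gabrg3 and Gabrq) and is present in 35.7% of all windows. The TATA box TATAAA, on either strand, was found for Gabrb2 and Gabra3 and is present in 13.6% of all windows.

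One array stands apart and touches several results. In WT replicate 2 the mean of 12 cerebellar granule cell markers was 8.75 log2 units, against 10.13 to 10.37 on the other 9 arrays, with Cbln3, a granule cell synapse organizer, at 7.34 (11.06 to 11.58 on the others), Neurod1 at 7.88 (10.54 to 11.00) and Fat2 at 7.46 (9.62 to 10.08). Marker means of the striatum (10.13, others 9.85 to 9.92), the hypothalamus (8.37, others 7.94 to 8.07) and cortical projection neurons (10.23, others 10.08 to 10.13) were higher in WT replicate 2 than on any other array. Hippocampal and thalamic marker means lay within the range of the other arrays, as did that of oligodendrocytes. Means of microglia, monoaminergic nuclei and the 1 measured blood marker were higher there than on any other array, and those of astrocytes and choroid plexus lower. In whole tissue, fewer cells of a type and less RNA per cell cannot be told apart. Differences between Tg and WT brains are therefore given with and without WT replicate 2. Array medians lay between 7.95 and 8.05 over the 28944 probe sets tested.

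None of the 10 subunit genes differed detectably between Tg and WT brain. With all arrays, 0 of 10 passed the threshold (limma adjusted p above 0.99 for each) and 0 had an unadjusted p under 0.05, where 0.0345% of all probe sets passed the adjusted threshold and 2.21% the unadjusted one. The Tg and WT values overlapped for all 10 genes; they did not overlap for 0.46% of all probe sets, and without WT replicate 2 for 0 members and 3.1% of all probe sets. The differences ran from -0.13 (Gabrq) to 0.05 (Gabra5), with a median of -0.024 against -0.003 over all probe sets. Means were higher in Tg for 4 genes, where 47.8% of all probe sets were. Without WT replicate 2, again 0 of 10 passed (lowest limma adjusted p = 0.52) and 0 had an unadjusted p under 0.05, while 0.038% and 11.0% of all probe sets did so. In that comparison the means of 3 genes were higher in Tg, against 54.2% of all probe sets, and the differences had a median of -0.034.

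The data bound how large a missed change in the whole-brain level could be, but not one confined to 1 region. On the brightest probe sets, the 95% confidence intervals extended 0.09 to 0.14 log2 units to either side with all arrays. Over all 10 genes they covered Tg levels from 83.1% to 112.9% of the WT level, and without WT replicate 2 from 85.1% (Gabrq) to 114.8% (Gabra5). The Gabrb2 probe set 10375259 had an interval of 85.9% to 116.6% with all arrays, and of 84.8% to 103.2% without WT replicate 2. On the brightest probe sets, residual spread within genotypes, 0.041 to 0.104 log2 units, was below the median of all probe sets (0.102) for 9 of the 10 genes. An array measures brightness and can compress true ratios, and brightness depends on the probes, so levels of different genes are not ranked here. Gabrq had the dimmest probe set, with 56.0% of probe sets below it. The other members each had between 79.7% and 97.9% of probe sets below them.

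**Figure D1:**
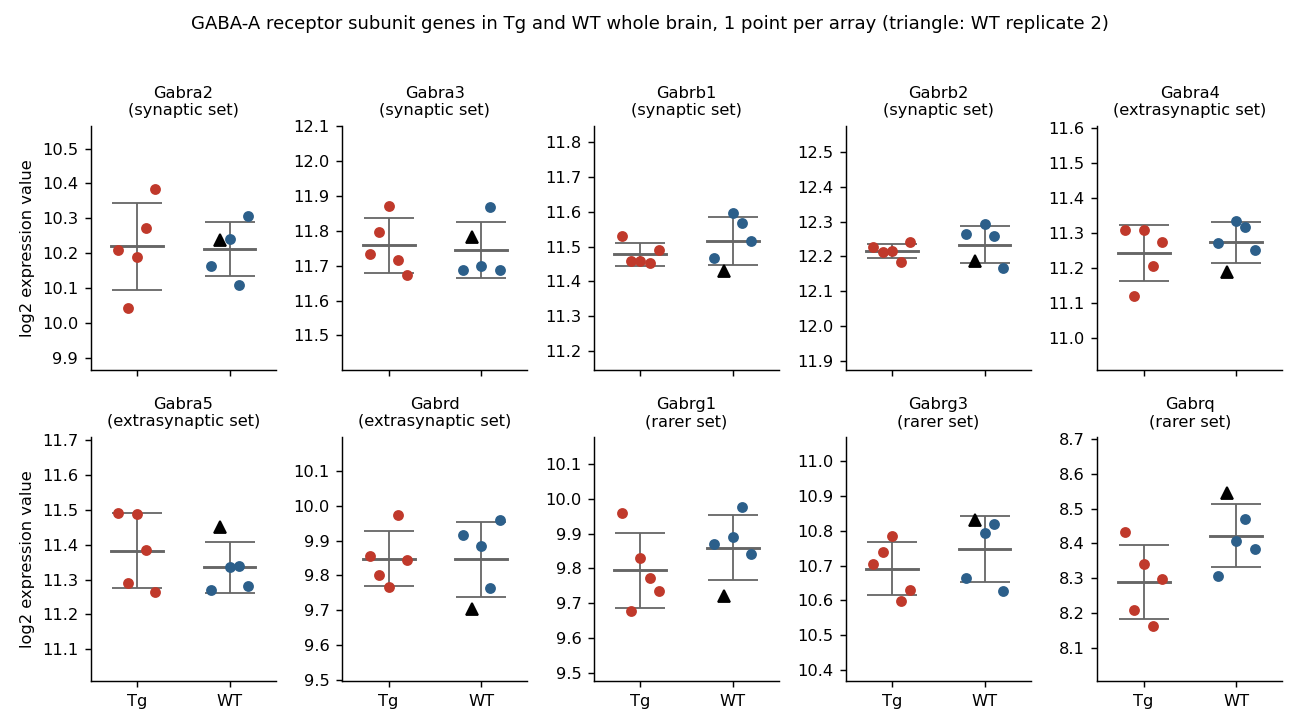
Log2 expression values (y axis, the same span in each panel) of the 10 subunit genes in Tg and WT brains (x axis), 1 point per array, with group mean and SD (n = 5 each). Tg and WT points overlap in every panel, and the triangle, WT replicate 2, is the highest point for Gabrg3 and Gabrq and the lowest for Gabrb1 and Gabrd.

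In the synaptic set, Gabra2 encodes alpha2, a subunit of forebrain synapses and of the axon initial segment of pyramidal cells. It read 10.21, 10.04, 10.19, 10.27 and 10.38 log2 units in Tg replicates 1 to 5, and 10.16, 10.24, 10.24, 10.11 and 10.31 in WT replicates 1 to 5. Its lowest and its highest value were both from Tg brains, and the WT values lay between them. The means were 10.22 ± 0.12 in Tg and 10.21 ± 0.077 in WT (SD, n = 5 each). The Tg level was 100.6% of WT (95% interval 91.4% to 110.8%), with an interval of 91.2% to 112.0% without WT replicate 2. Gabra3 encodes alpha3, which is prominent in the thalamic reticular nucleus and in monoamine neurons. It read 11.73, 11.80, 11.87, 11.72 and 11.67 in Tg brains, and 11.69, 11.78, 11.70, 11.87 and 11.69 in WT brains. The groups spanned nearly the same range, from 11.67 to 11.87 in Tg and 11.69 to 11.87 in WT. The difference was 0.01 (-0.10 to 0.13), and 0.02 (-0.10 to 0.14) without WT replicate 2.

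The beta subunits form the GABA-binding face together with an alpha subunit. Gabrb1 read 11.53, 11.46, 11.46, 11.45 and 11.49 in Tg brains, and 11.47, 11.43, 11.60, 11.57 and 11.52 in WT brains. All 5 Tg values lay within the WT range, whose lower end was WT replicate 2. With WT replicate 2 left out, Tg replicates 2, 3 and 4 were below every remaining WT value. The difference of -0.04 (-0.13 to 0.06) became -0.06 without that array (-0.15 to 0.03, two-sided exact permutation p = 0.111 over 5 against 4 arrays). Gabrb2 encodes the beta subunit that also joins delta receptors. On brightest probe sets it was the steadiest member, with a residual spread lower than that of all but 3.7% of probe sets. It read 12.23, 12.21, 12.22, 12.18 and 12.24 in Tg brains, and 12.26, 12.19, 12.29, 12.26 and 12.17 in WT brains. Its Tg values again fell inside the WT range, and the difference was -0.02 (-0.10 to 0.07), or -0.03 (-0.11 to 0.05) without WT replicate 2.

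Gabrb2 was the 1 member with further probe sets, and the low spread belonged to its brightest. Residual spread exceeded that of 29.4% of all probe sets on probe set 10375261 and that of 89.8% on probe set 10375259. On probe set 10375261 the means were 11.84 ± 0.081 in Tg and 11.89 ± 0.077 in WT (SD, n = 5 each), a difference of -0.05 (-0.17 to 0.07), or -0.06 (-0.18 to 0.06) without WT replicate 2. On probe set 10375259 they were 12.12 ± 0.12 in Tg and 12.12 ± 0.23 in WT (SD, n = 5 each), and the wider WT spread came from WT replicate 2, at 11.73 against 11.96 to 12.31 on the other arrays. Without that array this probe set differed by -0.10 (-0.24 to 0.05). The 3 probe sets thus gave no detectable difference, but they did not read WT replicate 2 alike: the brightest was 0.04 log2 units below the median of the other arrays there, and probe set 10375259 was 0.47 below.

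In the extrasynaptic set, Gabra4 read 11.31, 11.12, 11.31, 11.20 and 11.27 in Tg brains, and 11.27, 11.19, 11.34, 11.32 and 11.25 in WT brains. Only Tg replicate 2 lay below the WT range. The difference was -0.03 (-0.14 to 0.08), and -0.05 (-0.16 to 0.05) without WT replicate 2. Gabra5, whose alpha5 subunit is concentrated in the hippocampus, read 11.49, 11.29, 11.49, 11.39 and 11.26 in Tg brains, and 11.27, 11.45, 11.34, 11.34 and 11.28 in WT brains. Tg replicates 1 and 3 exceeded every WT value, while Tg replicate 5 was below every one. It was the member with the most positive difference, 0.05 (-0.08 to 0.18, exact permutation p = 0.437), and 0.08 (-0.04 to 0.20, exact permutation p = 0.254) without WT replicate 2. Both were smaller than the SD of the Tg brains, 0.11. The SD of the WT brains was 0.072 with all arrays and 0.037 without WT replicate 2, where the difference exceeded it.

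Gabrd encodes delta, the subunit most closely tied to steady inhibition, and is known from dentate and cerebellar granule cells and thalamus. It read 9.86, 9.80, 9.77, 9.97 and 9.84 in Tg brains, and 9.92, 9.70, 9.89, 9.76 and 9.96 in WT brains. The means were equal to 2 decimals, 9.85 ± 0.079 in Tg and 9.85 ± 0.11 in WT (SD, n = 5 each), a difference of 0.002 (-0.13 to 0.13). Without WT replicate 2, the lowest array for Gabrd, the difference was -0.03 (-0.15 to 0.09), so its sign depended on which arrays were used.

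In the rarer set, all 3 means were lower in Tg, with and without WT replicate 2, and none of the differences passed the test. Gabrg1 encodes gamma1, found mainly in amygdala, basal forebrain and glia. It read 9.96, 9.68, 9.83, 9.77 and 9.73 in Tg brains, and 9.87, 9.72, 9.89, 9.98 and 9.84 in WT brains. The difference was -0.07 (-0.20 to 0.07), and -0.10 (-0.23 to 0.03, exact permutation p = 0.127) without WT replicate 2. With that array left out, Tg replicates 2 to 5 were below all 4 WT values and Tg replicate 1 was among them. Gabrg3 encodes gamma3 and read 10.70, 10.74, 10.78, 10.60 and 10.63 in Tg brains, and 10.66, 10.83, 10.79, 10.82 and 10.63 in WT brains. The groups overlapped over most of their ranges, and the difference was -0.06 (-0.18 to 0.07), or -0.03 (-0.16 to 0.09) without WT replicate 2.

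Gabrq encodes theta, which is found in hypothalamus and in serotonin and noradrenaline neurons, and it had the lowest p of the members. It read 8.43, 8.21, 8.34, 8.16 and 8.30 in Tg brains, and 8.31, 8.55, 8.41, 8.47 and 8.38 in WT brains. Tg replicates 2, 4 and 5 lay below every WT value, and Tg replicates 1 and 3 lay among them. The means were 8.29 ± 0.11 in Tg and 8.42 ± 0.09 in WT (SD, n = 5 each). The Tg level was 91.2% of WT (95% interval 83.1% to 100.1%). The difference of -0.13 had an unadjusted limma p of 0.0516, a limma adjusted p above 0.99 and an exact permutation p of 0.0714. Without WT replicate 2, the highest array for Gabrq, it was -0.10 (-0.23 to 0.03, limma adjusted p = 0.52, exact permutation p = 0.143). With other single arrays left out the unadjusted limma p fell below 0.05 for Gabrq, to 0.0174 without Tg replicate 1 (difference -0.17) and 0.0272 without WT replicate 1 (-0.16). It was 0.0463 with median centring and 0.0466 over the brighter 60% of probe sets, and Gabrq passed the adjusted threshold in 0 of these. Marker means of both these regions were also highest in WT replicate 2, at 8.37 for hypothalamus and 8.15 for monoaminergic nuclei (others 7.78 to 8.01). Over Tg brains the monoaminergic mean was 7.94 to 8.01. Over the WT brains without replicate 2 it was 7.78 (WT replicate 4) to 7.93. That list also holds markers of dopamine neurons. The hypothalamic mean was 7.97 to 8.07 in Tg brains and 7.94 to 8.07 in those WT brains. The part of either in the Gabrq values was not tested.

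**Figure D2:**
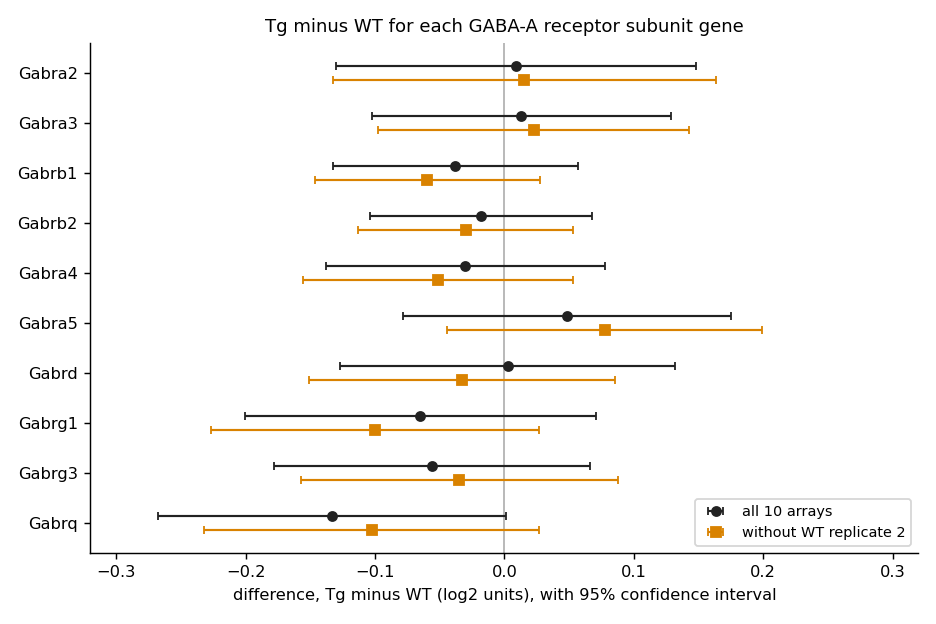
Difference, Tg minus WT, in log2 units (x axis) for each subunit gene (y axis), with limma 95% confidence intervals; circles use all 10 arrays (5 Tg, 5 WT) and squares leave out WT replicate 2. Every interval includes 0, and Gabrq lies farthest below it with all arrays, at -0.13.

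On their brightest probe sets, the 10 subunit genes moved little beside Gabra6 on the array with low cerebellar markers. The Gabrb2 probe set 10375259, 0.47 below the median of the other arrays there, was farther off. In WT replicate 2, Gabra6, the cerebellar granule cell subunit, read 6.03 log2 units, against 10.84 to 11.29 on the other 9 arrays. The brightest probe sets were at most 0.204 log2 units from the median of the other arrays. Gabrq reached that distance, which was larger than its Tg minus WT difference of -0.13. Gabrd, the partner of Gabra6 in granule cells, was at 9.70, just below the 9.76 to 9.97 of the others, and Gabrb1 was at 11.43 (others 11.45 to 11.60). Gabrq and Gabrg3 were highest there, with Gabrg3 at 10.83 (others up to 10.82). The remaining 6 lay within the range of the others. WT replicate 2 was thus the highest array for 2 members and the lowest for 2, or either for 4 of 10; over all probe sets it was the highest for 36.5%, the lowest for 14.7% and either for 51.2%.

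**Figure D3:**
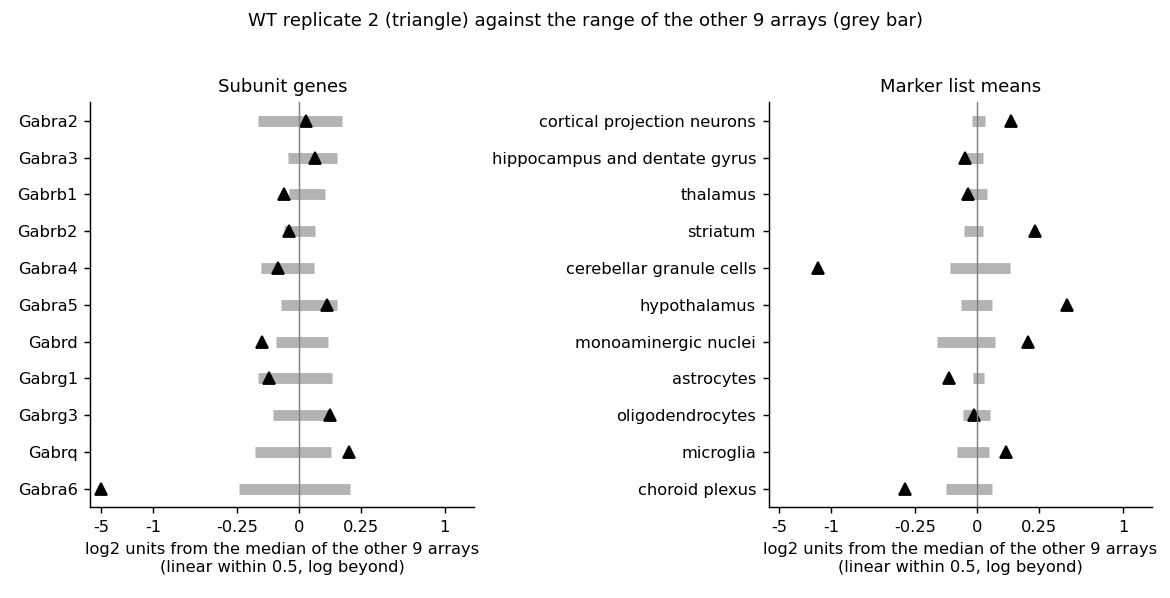
WT replicate 2 (triangle) as a distance in log2 units from the median of the other 9 arrays (x axis, linear within 0.5 and logarithmic beyond), for subunit genes on the left and marker list means on the right; grey bars span the other 9 arrays. Gabra6 and the cerebellar list lie far to the left, while the 10 subunit genes, on their brightest probe sets, lie no more than 0.204 from 0.

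Among themselves, the members varied together only in part. Of the 45 pairs of members, 30 had a positive Pearson correlation over the 10 arrays, with a median r of 0.16, and 0 passed a permutation test after Benjamini-Hochberg adjustment over the 45 pairs. The 8 pairs on a shared chromosome had a median r of 0.33 (range -0.13 to 0.82). For the 37 pairs on different chromosomes the median was 0.14 (range -0.83 to 0.71). Gabra4 and Gabrb1, whose printed start regions face each other, had r = 0.70 (permutation p = 0.0223, adjusted 0.176) and rho = 0.85 (permutation p = 0.0028, adjusted 0.0601). Their r was 0.55 without the 2 arrays farthest from the Gabrb1 median and 0.65 without WT replicate 2. Gabrg1, on the same chromosome but farther away, ran alike with Gabra4 (r = 0.82, permutation p = 0.00314, adjusted 0.108; rho = 0.83, permutation p = 0.00503, adjusted 0.0601; r = 0.64 without the 2 farthest arrays). The pair of Gabrg1 with Gabrb1 had r = 0.73, rho = 0.82 and r = 0.68 without WT replicate 2. Gabra2, in the same cluster, did not follow, with r between -0.13 and 0.25 to the other 3. Gabrq, on the X chromosome, had r = 0.35, 0.41 and 0.44 to Gabrb1, Gabra4 and Gabrg1 over the 10 arrays. Without WT replicate 2 these were 0.81, 0.80 and 0.85. Without the 2 arrays farthest from the Gabrb1, Gabra4 and Gabrg1 medians in turn, they were 0.12, 0.83 and 0.12. Whether the likeness reached beyond chromosome 5 thus depended on the arrays used.

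The most negative pair, named after its values were seen, was Gabrd with Gabrg3 (r = -0.83, permutation p = 0.00482, adjusted 0.108; rho = -0.83, permutation p = 0.00522, adjusted 0.0601). It had r = -0.69 without the 2 arrays farthest from the Gabrd median and -0.77 without WT replicate 2. These values share their arrays and normalization, and within a genotype 5 arrays are too few for a correlation of their own. The genes whose pattern over the 10 arrays was most like that of the 2 members with the largest SD over all 10 arrays, Gabrq (0.117) and Gabrg1 (0.101), were looked up among 12899 brighter genes. For Gabrq they were Dhdds, Sntg1 and Pgr (r = 0.94, 0.93 and 0.92, rho = 0.93, 0.90 and 0.92), with r of 0.92, 0.90 and 0.90 over the 9 arrays without WT replicate 2. For Gabrg1 they were Nkain2, Nol11 and Atp11b, each with r = 0.97 (rho = 0.98, 0.96 and 0.98; r = 0.98, 0.97 and 0.96 over 9 arrays). They were picked as the highest of many, so they carry no p, and none lies on the chromosome of its member.

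**Figure D4:**
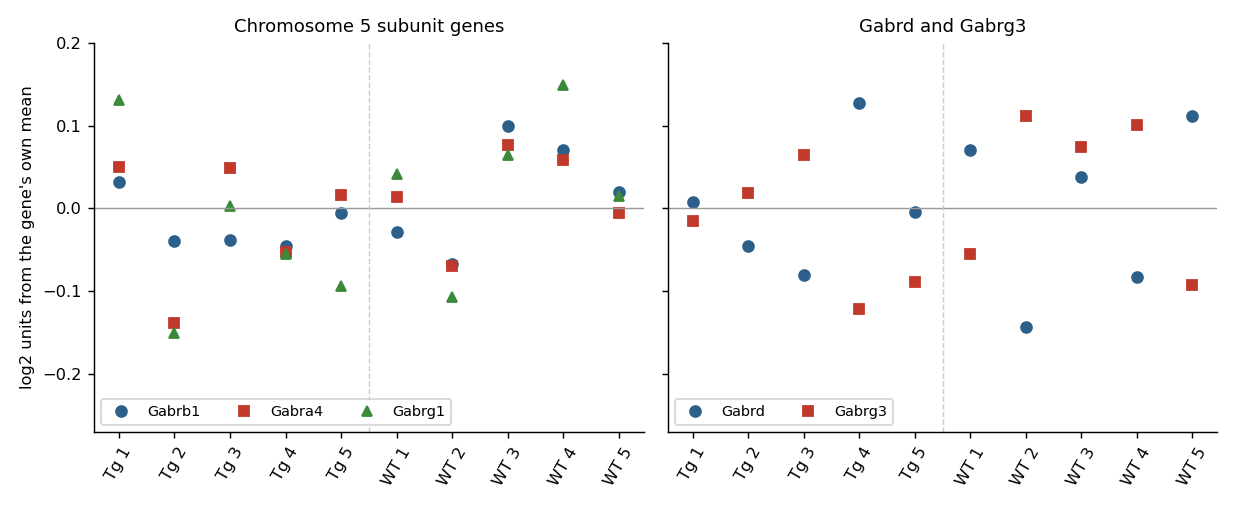
Distance of each array from the gene's own 10-array mean, in log2 units (y axis), by array (x axis, Tg left and WT right of the dashed line), for 3 chromosome 5 genes and for Gabrd and Gabrg3. Gabrb1, Gabra4 and Gabrg1 are all low in WT replicate 2 and high in WT replicates 3 and 4; Gabrd and Gabrg3 lie on opposite sides of 0 on 8 of 10 arrays.

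The other genes of the receptor pathway were compared in the same fit. Of the other GABA-A subunit genes, 6 of 9 listed were measured and 0 passed with all arrays or without WT replicate 2, with a median difference of 0.022 with all arrays and 0.075 without WT replicate 2. Gabra6 averaged 10.93 ± 0.091 in Tg (SD, n = 5) and 11.22 in the 4 WT brains without replicate 2. That difference of -0.29 (-0.41 to -0.17) had an unadjusted limma p of 2.27e-04 and missed the threshold (limma adjusted p = 0.274). Its two-sided exact permutation p was 0.0159, the smallest possible for 5 against 4 arrays. The groups did not overlap without WT replicate 2 (Tg 10.84 to 11.08, WT 11.16 to 11.29), as for 3.1% of all probe sets. With all arrays the Gabra6 difference was 0.75 (-1.14 to 2.63). The mean of the cerebellar granule cell markers moved with Gabra6. It was 10.13 to 10.24 in Tg brains and 10.30 to 10.37 in WT brains without replicate 2, and its part was not tested.

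Of 32 listed genes that anchor, traffic or assemble GABA-A receptors, 31 were measured and 0 passed in either comparison, nor did any have an unadjusted p under 0.05. Their median difference was -0.003 with all arrays, with single genes from -0.08 to 0.04, and -0.010 without WT replicate 2. Gphn, gephyrin, the scaffold of inhibitory synapses, averaged 11.17 ± 0.026 in Tg and 11.18 ± 0.094 in WT (SD, n = 5 each), and differed by -0.04 (-0.12 to 0.04) without WT replicate 2. Nlgn2, neuroligin 2, the adhesion molecule of those synapses, differed by -0.04 (-0.13 to 0.06), or -0.03 without that array. Lhfpl4, a receptor partner needed for synaptic clustering, differed by -0.05 (-0.17 to 0.08) with all arrays and by 0.00 (-0.07 to 0.08) without WT replicate 2, which read 10.67 against 10.36 to 10.45 on the others. Shisa7, an auxiliary subunit, differed by -0.04 (-0.14 to 0.06), or -0.01 without that array. Rdx, radixin, which holds alpha5 receptors outside synapses, averaged 10.55 ± 0.056 in Tg and 10.56 ± 0.17 in WT (SD, n = 5 each). In WT replicate 2 Rdx was lowest, at 10.27 (others 10.46 to 10.72), and without that array it differed by -0.09 (-0.19 to 0.01, limma adjusted p = 0.49). With all arrays, the 3 lowest p of the list belonged to Mdga2, a neuroligin-binding protein, at -0.08 (-0.20 to 0.04), Gabarapl1, of the receptor-associated protein family, at -0.05 (-0.14 to 0.04), and Arfgef2, an exchange factor of vesicle traffic, at -0.04 (-0.12 to 0.04). Without WT replicate 2 these were -0.07, -0.05 and -0.03, and the lowest p belonged to Rdx.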

How the data were processed

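Whole-brain RNA of 5 Tg and 5 WT mice was extracted (TRIzol, then RNeasy), biotin-labelled and run on single-channel arrays, per the labels' protocols. The deposited values are log2 expression values (3.28 to 14.7), made by the authors; the submitters' processing notes name Affymetrix Expression Console 1.1.2, and its settings were not given in the sources used here. They were used without further normalization. Identifiers before the first transcript cluster (6612 rows) were left out, and 28944 probe sets were tested, of which 21789 had 1 gene in the platform annotation. Tg and WT were compared with limma 3.58.1 (lmFit, eBayes, no covariates; R 4.3.3). Benjamini-Hochberg adjustment ran over all probe sets, with a threshold of 0.05 and 95% intervals. Single genes also had two-sided exact permutation tests, whose smallest p is 0.00794 for 5 against 5 arrays and 0.0159 for 5 against 4. The limma fit was first tested on simulated data with the spread of the Tg arrays and added differences larger than any of the members. That check does not cover differences as small as theirs. Correlations used 100000 permutations. Arrays have no read depth; their number limits the precision.

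The members and lists were chosen with earlier results of these data known. Named are the 10 members, Gabra6, and preset anchoring genes with the 3 of lowest p; for likeness, the 3 closest genes to each of the 2 members with the largest SD; and the 3 marker genes of a list that differ most in WT replicate 2, given here for the cerebellum. Alternatives covered scaling between arrays, a filter on dim probe sets, the replicate number as a block, variance models, array weights, the mean of probe sets, and leaving out each array.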

Additional observations from a re-analysis of the deposited data

Results flagged for a closer look

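In 36 groups of 5 arrays, 3 held an array whose gap to its nearest neighbour took up more of the group's range than the critical value of 0.71; chance flags about 1 in 20. Gabra6 in WT replicate 2 read 6.03, with the other WT arrays at 11.16 to 11.29. Lhfpl4 in WT replicate 2 read 10.67, with the other WT arrays at 10.36 to 10.45. Gabrb2 on probe set 10375261 read 12.03 in WT replicate 4, with the other WT arrays at 11.84 to 11.87. The brightest probe sets of the 10 subunit genes gave no such array in either genotype.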

How the results depend on the processing

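Under all 19 alternatives, 0 of the 10 subunit genes and 0 of the 37 other receptor and anchoring genes passed, with lowest limma adjusted p values of 0.52 and 0.274, both without WT replicate 2. The number of probe sets past the threshold was 9 to 11 throughout, against 10. Among the alternatives, the median Tg minus WT difference over all probe sets ran from -0.013 to 0.008. It was -0.003 in the fit of the deposited values from all arrays. Signs held under all alternatives for 6 members: Gabra5, Gabrb1, Gabrb2, Gabrg1, Gabrg3 and Gabrq (-0.17 to -0.088). For 4 members with differences near 0 the sign changed: with single arrays left out, Gabra2 ranged from -0.032 to 0.053, Gabra3 from -0.015 to 0.044, Gabra4 from -0.051 to 0.0004 and Gabrd from -0.033 to 0.031, and with array weights Gabrd was -0.026; these shifts are smaller than the spread between mice. With the replicate block, 11 probe sets and 0 members passed. Nothing in the labels pairs same-numbered mice, and the correlations of their deviations ran from -0.472 to 0.453.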
